A study of Mus musculus with 12 samples.

Results

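The mRNAs of the translation initiation and elongation factors were followed through activation of the mouse T lymphoma line EL-4. The set was chosen by name: it holds each gene whose probe set carries exactly 1 symbol beginning with Eif1 to Eif6, Eef1 or Eef2, so that kinases, inhibitors and methyltransferases of these factors are included. This gave 61 genes on 71 probe sets, of 19938 genes with such a symbol in the table. Cells were pretreated for 30 min with 10 µg/ml cycloheximide (CHX) in DMSO, or with DMSO alone, and then received 10 ng/ml phorbol myristate acetate and 1 µM ionomycin (P/I) for 4 h or were left unstimulated (0 h). The 4 groups are called control (DMSO, 0 h), P/I (DMSO, 4 h), CHX (0 h) and P/I plus CHX (4 h), each with 3 arrays that the submitters describe as biological replicates. One lymphoma line was used throughout and all 4 groups received DMSO.

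Initiation factors load the small ribosomal subunit with the initiator tRNA, bring it to the capped 5′ end of an mRNA and guide it to the start codon, where the large subunit joins. Elongation factors then deliver aminoacyl-tRNAs and move the ribosome along the codons. Both steps are controlled by phosphorylation, since the Eif2ak kinases slow initiation through the alpha subunit of eIF2, the eIF4E-binding proteins hold back the cap-binding protein, and the eEF2 kinase slows elongation. CHX blocks the elongation step on the ribosome, and the study used it to ask which P/I responses need new protein synthesis. The arrays report steady-state mRNA of these factors, not their protein, phosphorylation or activity.

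All values are robust multichip average (RMA) values on a log2 scale, so a difference of 1 is a doubling. Calls were made with limma, at an adjusted p (Benjamini-Hochberg, over all 23410 symbol-bearing probe sets) below 0.1, and a plus-minus sign after a difference gives its standard error. A gene with several probe sets is represented by the one with the highest mean. Array number limits the precision, and in a bulk sample fewer cells expressing a gene and less RNA per cell cannot be told apart. The contrasts share arrays, so they are not independent of each other. The CHX group is labelled 0 h, so between it and the P/I plus CHX group the time since CHX was added and P/I cannot be told apart. The control group is labelled 0 h as well, and no unstimulated group is labelled 4 h. Between control and P/I, the 4 h in culture with DMSO and P/I therefore cannot be told apart either. Differences called P/I differences below include that time.

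The T cell identity of the samples could be read from the arrays. Of 10 listed T cell markers 9 were measured, and none fell below 7.67 on any array. With P/I in DMSO 2 of them were higher and 2 lower, and with CHX during P/I 3 were higher and 3 lower. The 6 myeloid markers stayed at or below 5.62. Of 5 measured B cell markers 4 had control means of 4.21 to 5.47, and Cd79b had one of 7.44 and fell by 0.94 with P/I in DMSO. The highest B cell marker value on an array was 7.70, just above the lowest T cell marker value of 7.67. The summed linear values of the B cell markers ran from 253 to 321 in control and 198 to 215 in P/I arrays, from 258 to 281 in CHX and from 237 to 253 in P/I plus CHX arrays. Those of the myeloid markers ran from 183 to 184, 164 to 173, 172 to 182 and 178 to 180 in the same order, with Fcgr3 the 1 marker called (-0.32 with P/I in DMSO). Their part in the results was not tested. Replicate 1 stood apart in each group, correlating with replicates 2 and 3 at 0.983 to 0.991 while those correlated with each other at 0.992 to 0.994. Counts without the 4 replicate 1 arrays, which were added once the values had been seen, are therefore given beside each count. Shares of all probe sets are given only for the fit of all arrays without a block on replicate number. Counts from other fits therefore have no share beside them.

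In DMSO-treated cells, the mRNA of 11 of the 61 factor genes was higher after 4 h of P/I than in control at 0 h. That of 6 was lower. The genes that rose included Eif1a, Eif5, the eIF2 kinase gene Eif2ak4 and the eIF4E inhibitor gene Eif4ebp1, whereas the eEF2 kinase gene Eef2k fell furthest. Thus 18.0% of the member genes were higher and 9.84% lower, against 9.05% and 8.42% of all probe sets tested. Among the 46 members with a mean of at least 8 the shares were 23.9% and 6.52%, beside 16.5% and 13.8% of the 6242 probe sets above that level. The median P/I difference of the members was 0.10, beside -0.03 over all probe sets, and 44 members had a positive and 17 a negative difference. Without the replicate 1 arrays 15 members were higher and 9 lower. The count of higher members was 4 without control replicate 3, and 5 without control replicate 2, P/I replicate 1 or P/I replicate 3. Of the 17 calls, 7 were kept when any single array was left out: Eif1a, Eif2ak4 and Eif3c among the higher, and Eef2k, Eif1b, Eif4b and Eif4e3 among the lower. With the replicate number as a block, limma called 23 members. Those not called without it were Eef1d (0.24 ± 0.09, adjusted p = 0.0903), Eef1a2 (-0.24 ± 0.09, adjusted p = 0.098), Eif1ad, Eif2b3, Eif2b4 and Eif3b.

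**Figure D1:**
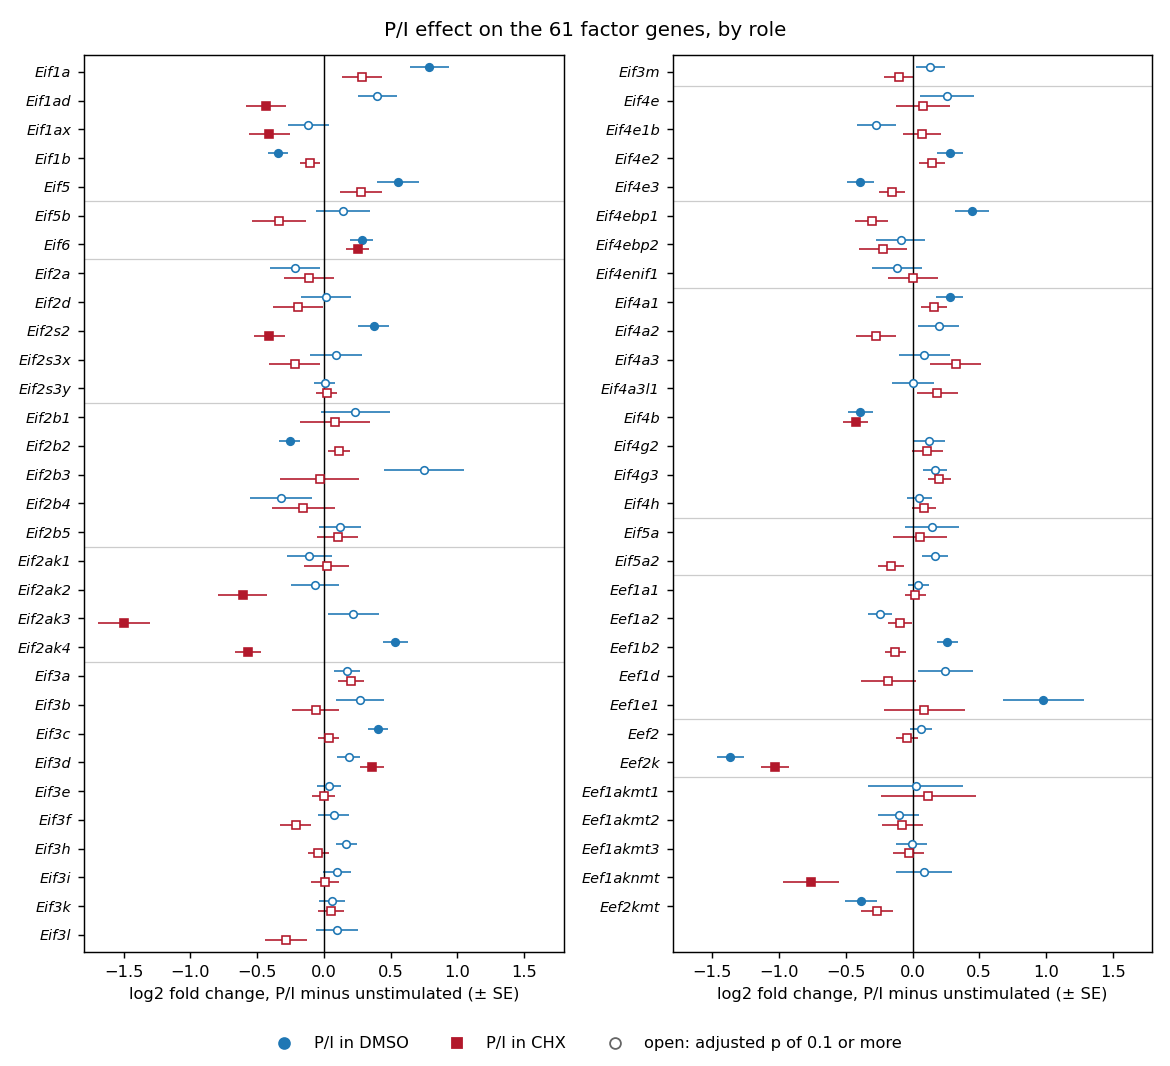
P/I effect on each of the 61 factor genes, as the log2 fold change of stimulated over unstimulated cells (x axis, ± SE from limma), in DMSO-treated cells (blue circles) and CHX-treated cells (red squares). Genes are ordered by role with grey lines between roles, and filled symbols passed an adjusted p of 0.1. Eef2k lies far to the left in both treatments, at -1.36 and -1.03, while Eif2ak3 does so only in CHX, at -1.50.

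The largest fall was that of Eef2k, which encodes the kinase that phosphorylates and inhibits eEF2. Its values were 8.04, 7.85 and 7.87 in unstimulated DMSO-treated cells and 6.47, 6.49 and 6.72 after P/I. In CHX-treated cells they were 7.97, 7.85 and 7.97 without and 6.80, 6.81 and 7.09 with P/I. Every stimulated array thus lay below every unstimulated one in both treatments. The P/I difference was -1.36 ± 0.10 in DMSO (2.57-fold lower, limma adjusted p = 4.91e-06) and -1.03 ± 0.10 in CHX (2.04-fold lower, adjusted p = 4.15e-05). A second Eef2k probe set was also lower, with differences of -0.76 in DMSO and -1.02 in CHX. During P/I, CHX left the first probe set 0.34 ± 0.10 higher (adjusted p = 0.0341), but this call was lost without P/I plus CHX replicate 3 (0.25, adjusted p = 0.149) or P/I replicate 2 (0.31, adjusted p = 0.104), and the second probe set gave -0.13 (adjusted p = 0.564).

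The substrate of that kinase, eEF2, which moves the ribosome along the mRNA, showed no called change in its own mRNA. The Eef2 P/I difference in DMSO was 0.06 with a 95% interval of -0.12 to 0.24, and the CHX difference during P/I was -0.14 with an interval of -0.32 to 0.04. For Eef1a1, the main carrier of aminoacyl-tRNA, the P/I interval was -0.13 to 0.21 and the CHX interval during P/I -0.20 to 0.14. Eef1a1 was not called in any contrast either. It has near-identical copies in the genome that its probes may share.

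The 4 eIF2 kinases each respond to a different stress. Eif2ak4 encodes GCN2, the sensor of uncharged tRNA. It was at 8.25, 8.05 and 7.96 in control, 8.70, 8.71 and 8.47 in P/I and 8.11, 8.13 and 8.06 in CHX arrays, and at 7.45, 7.59 and 7.55 in P/I plus CHX. The stimulated arrays lay above all unstimulated arrays in DMSO and below all of them in CHX. P/I raised Eif2ak4 by 0.54 ± 0.09 in DMSO (1.45-fold, limma adjusted p = 0.00221) while in CHX it fell by 0.57 ± 0.09 (1.48-fold lower, adjusted p = 0.00127). The difference between these P/I effects, tested as an interaction, was -1.10 ± 0.13 (adjusted p = 0.000348).

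Eif2ak3 encodes PERK, the kinase that senses unfolded protein in the endoplasmic reticulum. Its values were 8.40, 8.74 and 8.46 in unstimulated and 8.83, 8.47 and 8.96 in stimulated DMSO-treated cells, which overlapped. With CHX they were 8.56, 9.23 and 8.94 without and 7.23, 7.74 and 7.27 with P/I, so the P/I plus CHX arrays lay below every other array. With CHX during P/I, Eif2ak3 fell by 1.34 ± 0.19 (2.54-fold lower, limma adjusted p = 0.000366), P/I in CHX gave -1.50 ± 0.19 (2.82-fold lower, adjusted p = 0.000234) and the interaction was -1.72 ± 0.27 (adjusted p = 0.00221). In DMSO the P/I difference was 0.22 with a 95% interval of -0.20 to 0.64.

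Of the remaining eIF2 kinases 1 was called. Eif2ak2 encodes PKR, the sensor of double-stranded RNA, and was at 7.95, 7.84 and 7.93 in unstimulated and 7.20, 7.37 and 7.32 in stimulated CHX-treated cells. These groups did not overlap, and the difference was -0.61 ± 0.18 (limma adjusted p = 0.0373), a call lost without P/I plus CHX replicate 1 (-0.56, adjusted p = 0.1001) or CHX replicate 3 (-0.60, adjusted p = 0.102). In DMSO-treated cells the Eif2ak2 groups overlapped, with a P/I difference of -0.07. Eif2ak1, which encodes the heme-regulated kinase, was called in no contrast, and its P/I difference in DMSO had a 95% interval of -0.48 to 0.26 and its CHX difference during P/I one of -0.20 to 0.54.

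**Figure D2:**
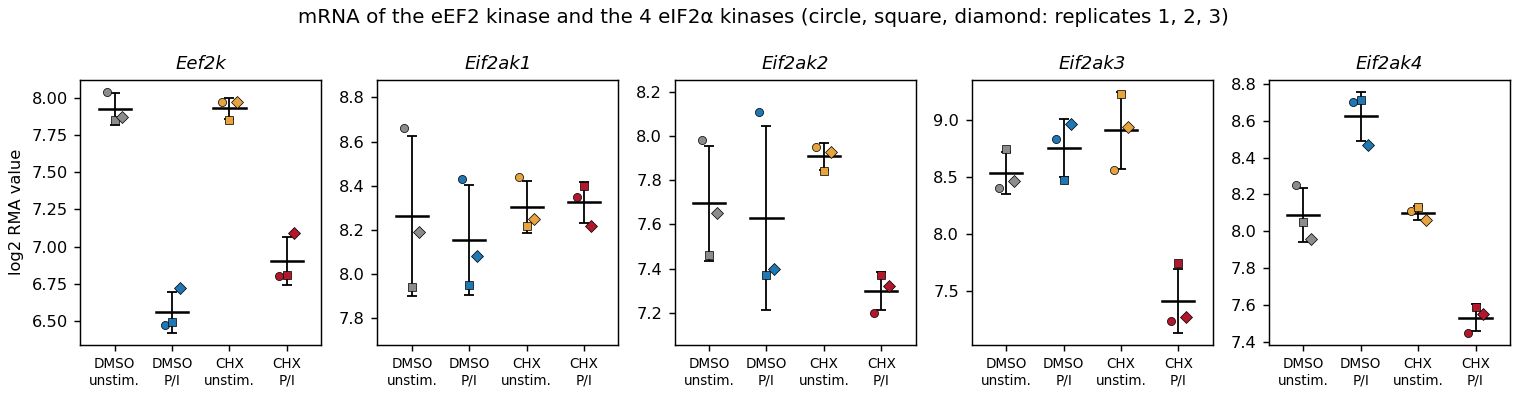
Values of the eEF2 kinase gene and the 4 eIF2 kinase genes on each array (y axis, log2 RMA value, with a separate range per gene that does not start at 0) in the 4 groups; bars give the mean ± SD of 3 arrays. Eef2k falls with P/I in both treatments, Eif2ak4 rises with P/I in DMSO and falls in CHX, and Eif2ak3 is low only in P/I plus CHX, at 7.23 to 7.74.

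The RefSeq promoter windows of these kinase genes, 250 bases before to 50 after the annotated start in GRCm38.p6, are shown because Eef2k, Eif2ak3 and Eif2ak4 had the largest called changes of the set. Windows were found for 48 of the 61 members, and 13 members had no entry. Capitals mark a CACGTG E-box in Eef2k and CCAAT boxes, read on both strands and therefore also as ATTGG, in Eif2ak3; the Eif2ak4 window held neither a CCAAT box nor capitals. The windows lie at chr7:120842581-120842880 (plus strand), chr6:70844265-70844564 (plus strand) and chr2:118388367-118388666 (plus strand), and Eef2k and Eif2ak4 have 3 and 2 windows, of which 1 is shown. It was the window with the most matches to the motif, or the first if tied, so the choice for Eef2k depended on the E-box.
Eef2k: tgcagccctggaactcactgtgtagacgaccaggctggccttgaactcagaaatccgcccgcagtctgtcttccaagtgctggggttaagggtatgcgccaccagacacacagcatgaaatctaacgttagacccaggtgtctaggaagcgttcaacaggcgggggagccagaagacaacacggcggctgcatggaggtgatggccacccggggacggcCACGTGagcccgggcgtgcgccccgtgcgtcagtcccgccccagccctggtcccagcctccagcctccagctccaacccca
Eif2ak3: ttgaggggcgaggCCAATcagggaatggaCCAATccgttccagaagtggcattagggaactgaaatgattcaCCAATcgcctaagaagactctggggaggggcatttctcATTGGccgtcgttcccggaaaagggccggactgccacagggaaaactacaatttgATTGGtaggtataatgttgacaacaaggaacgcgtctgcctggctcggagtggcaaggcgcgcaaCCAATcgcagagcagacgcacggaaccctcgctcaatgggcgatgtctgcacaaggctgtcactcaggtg
Eif2ak4: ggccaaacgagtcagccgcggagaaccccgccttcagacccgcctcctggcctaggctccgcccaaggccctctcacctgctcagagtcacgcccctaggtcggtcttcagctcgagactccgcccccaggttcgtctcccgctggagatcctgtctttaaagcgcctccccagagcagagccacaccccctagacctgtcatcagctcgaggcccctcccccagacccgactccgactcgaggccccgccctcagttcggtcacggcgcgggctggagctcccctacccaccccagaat

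In the window shown, the E-box of Eef2k begins 31 bases before the start, written as position -31. The CACGTG motif occurred in the windows of 12 of 48 member genes (25%), against 8.09% of all genes with a window. CCAAT boxes occurred in 17 of 48 (35.4%), against 41.1% of genes, and Eif2ak3 held 6 of them, a number reached by 26 windows in all (0.0791%). The AP-1 site TGACTCA was found in the window of 1 member, Eif3l (2.08%, against 5.95% of genes). Eif3l was not called in any contrast without a replicate block. With one, limma called it lower with P/I in CHX (-0.29 ± 0.07, adjusted p = 0.00692) and with CHX during P/I (-0.36 ± 0.07, adjusted p = 0.00148). Its blocked interaction was -0.38 ± 0.09 (adjusted p = 0.0147). These letter matches describe the sequence and say nothing of binding.

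Among the 5 genes that act at the start codon, P/I in DMSO raised Eif1a and Eif5 and lowered Eif1b. Eif1a, which encodes a form of eIF1A that promotes scanning, was at 9.06, 8.91 and 8.90 in unstimulated and 9.98, 9.47 and 9.79 in stimulated DMSO-treated cells. The groups did not overlap, and Eif1a rose by 0.79 ± 0.15 (1.73-fold, limma adjusted p = 0.00338). With CHX it was at 9.25, 8.94 and 8.89 without and 9.06, 9.50 and 9.37 with P/I, and these groups overlapped. The CHX difference during P/I was -0.44 ± 0.15 (adjusted p = 0.0583), lost without replicate 1 or 3 of the P/I or P/I plus CHX group, with differences of -0.31 to -0.47 and adjusted p of 0.102 to 0.209. Its paralogue Eif1ax was not called with P/I in DMSO (-0.12), and with P/I in CHX it fell by 0.41 (adjusted p = 0.0954). That call was lost in 7 of the 12 fits that left out 1 array, at -0.31 to -0.41. The 2 paralogues are alike in sequence, and how far their probes cross-detect was not tested.

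Eif5 encodes the factor that triggers GTP hydrolysis by eIF2 at the start codon. Its values were 10.74, 10.37 and 10.36 in unstimulated and 11.36, 10.79 and 10.99 in stimulated DMSO-treated cells, which did not overlap. It rose by 0.56 ± 0.16 (1.47-fold, limma adjusted p = 0.0371), and the call was lost without P/I replicate 1 (0.40, adjusted p = 0.111) or control replicate 2 (0.50, adjusted p = 0.138) or 3 (0.49, adjusted p = 0.138). Eif1b, a form of the start codon factor eIF1, went the other way. It was at 9.82, 9.78 and 9.88 without and 9.46, 9.48 and 9.51 with P/I in DMSO, a difference of -0.34 ± 0.08 (adjusted p = 0.0101), and P/I plus CHX arrays were at 9.68, 9.87 and 9.77, 0.29 ± 0.08 above P/I alone (adjusted p = 0.0174).

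Eif1ad encodes a protein with an eIF1A-like domain and differed most between treatments during P/I within this role. With P/I in DMSO its difference, 0.40, was called with a replicate block (± 0.08, adjusted p = 0.00447) and not without one (adjusted p = 0.107). It was at 10.30, 9.93 and 10.14 in P/I and 9.47, 9.31 and 9.19 in P/I plus CHX. The groups did not overlap, and the difference was -0.80 ± 0.15 (1.74-fold lower, limma adjusted p = 0.00192). The interaction was -0.83 ± 0.21 (adjusted p = 0.0253).

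Of the genes for eIF2, which carries the initiator tRNA, Eif2s2 (the beta subunit) was the one called without a replicate block. It was at 10.27, 10.26 and 10.20 in unstimulated and 10.85, 10.40 and 10.62 in stimulated DMSO-treated cells, at 10.34, 10.19 and 10.22 in CHX and at 10.03, 9.74 and 9.75 in P/I plus CHX. The stimulated arrays lay above all unstimulated ones in DMSO and below all of them in CHX. With CHX during P/I it fell by 0.78 ± 0.12 (1.72-fold lower, limma adjusted p = 0.000467), and a second probe set gave -1.04. The P/I rise in DMSO was 0.37 ± 0.12 (adjusted p = 0.0531), a call lost without control replicate 2 or 3 or P/I replicate 1 or 3 (0.26 to 0.38). The P/I fall in CHX was -0.41 ± 0.12 (adjusted p = 0.0296), a call lost without P/I plus CHX replicate 2 or 3 or CHX replicate 1 (-0.36 in each). The interaction was -0.78 ± 0.16 (adjusted p = 0.0102). The alpha subunit gene is not among the 61, and the gamma subunit genes Eif2s3x and Eif2s3y were called in no contrast without a replicate block. With one, Eif2s3x was lower with CHX during P/I (-0.26 ± 0.09, limma adjusted p = 0.0514). Eif2s3y was the lowest member, at 4.09 to 4.29 on every array, so its lack of a call says little.

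In eIF2B, which reloads eIF2 with GTP, Eif2b2 was called of 5 subunit genes. Its values were 9.17, 9.12 and 9.18 in unstimulated and 8.99, 8.92 and 8.79 in stimulated DMSO-treated cells, and 9.39, 9.44 and 9.25 in P/I plus CHX. P/I plus CHX arrays lay above all P/I arrays, by 0.46 ± 0.08 (1.38-fold, limma adjusted p = 0.00145). The P/I fall in DMSO, -0.26 ± 0.08 (adjusted p = 0.0583), was lost without any 1 of the 3 control arrays or P/I replicate 3 (-0.20 to -0.27). Eif2b3 had a larger P/I difference, 0.75 with a 95% interval of 0.10 to 1.4, but did not pass (adjusted p = 0.141). Its values were 9.47, 8.63 and 8.77 in control and 10.21, 9.25 and 9.66 in P/I arrays, higher in each same-numbered pair, although the groups overlapped. With the replicate number as a block it was called (0.75 ± 0.09, adjusted p = 0.000141), as was Eif2b4 (-0.32 ± 0.11, adjusted p = 0.0636). With CHX during P/I, Eif2b3 differed by -0.61, called with a replicate block (± 0.09, limma adjusted p = 0.000426) and not without one (adjusted p = 0.207). With each array centred on its median, the Eif2b2 calls for P/I in DMSO (-0.21, adjusted p = 0.208) and for the interaction (0.27, adjusted p = 0.281) were lost.

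The 11 measured eIF3 genes, which encode the scaffold on the small subunit, had P/I differences between 0.04 and 0.40 in DMSO with a median of 0.13, and 1 of them was called (a second, Eif3b, with a replicate block, at 0.27 ± 0.08 and adjusted p = 0.0309). The first was Eif3c, at 11.60, 11.69 and 11.62 without and 12.16, 11.95 and 12.02 with P/I. The groups did not overlap, and the rise was 0.40 ± 0.08 (1.32-fold, limma adjusted p = 0.0038). P/I plus CHX gave 11.69, 11.64 and 11.81, below every P/I array, a difference of -0.33 ± 0.08 (adjusted p = 0.00913). CHX during P/I also lowered Eif3f (-0.42) and Eif3h (-0.22), although the Eif3h call was lost without replicate 1 or 3 of the P/I or P/I plus CHX group (-0.20 to -0.21) and with quantile normalization (-0.11, adjusted p = 0.483). Without a replicate block, the representing Eif3m probe set was not called with CHX during P/I (-0.26, limma adjusted p = 0.12), but a second one was (-0.41, adjusted p = 0.0347). That second probe set was also lower with P/I in CHX (-0.35, adjusted p = 0.0757), where the first gave -0.10. Eif3d went up with P/I in CHX, from 10.77, 10.61 and 10.67 to between 10.95 and 11.18, a difference of 0.36 ± 0.09 (adjusted p = 0.014), without overlap.

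At the cap, the inhibitor gene Eif4ebp1 showed the clearest pattern. Its protein binds eIF4E until mTORC1 phosphorylates it. It was at 8.42, 8.72 and 8.88 in unstimulated and 9.04, 8.95 and 9.38 in stimulated DMSO-treated cells, at 8.49, 8.49 and 8.52 in CHX and at 8.16, 8.23 and 8.2 in P/I plus CHX. With CHX during P/I it fell by 0.93 ± 0.13 (1.90-fold lower, limma adjusted p = 0.000254), and no P/I plus CHX array reached any P/I array. The P/I rise in DMSO, 0.45 ± 0.13 (adjusted p = 0.0349), was lost without control replicate 1 (0.32, adjusted p = 0.116) or P/I replicate 3 (0.32, adjusted p = 0.142), and with quantile normalization (0.37, adjusted p = 0.149). With P/I in CHX its difference was -0.31, called with a replicate block (adjusted p = 0.055). Its paralogue Eif4ebp2 was not called, with a 95% interval for the CHX difference during P/I of -0.64 to 0.15.

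The cap-binding protein gene Eif4e was not called with P/I in DMSO (0.26, interval -0.18 to 0.69), and its 3 probe sets disagreed on CHX during P/I, with -0.02, -0.39 (adjusted p = 0.0231) and -0.28. Eif4e3, which encodes a related cap-binding protein, was lower after P/I, at 5.50, 5.70 and 5.72 against 5.87, 6.21 and 6.02 (-0.39 ± 0.10, limma adjusted p = 0.0204). With CHX during P/I it was 0.30 ± 0.10 higher (adjusted p = 0.0494), a call lost without P/I plus CHX replicate 1 (0.29) or 3 (0.29) or P/I replicate 1 (0.23). Eif4e2, for another relative, was higher by 0.28 ± 0.10 (adjusted p = 0.0803). That call was lost without control replicate 2 or 3, P/I replicate 1 or 3, CHX replicate 1 or P/I plus CHX replicate 3 (0.22 to 0.29), and under both other scalings (0.18 and 0.33).

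Among the helicase genes, Eif4b, for a protein that stimulates the eIF4A helicase, fell with P/I in both treatments. It was at 11.88, 11.95 and 11.87 without and 11.73, 11.43 and 11.36 with P/I in DMSO, and at 11.91, 11.88 and 11.96 without and 11.51, 11.53 and 11.45 with P/I in CHX. No stimulated array reached an unstimulated one in either treatment. The differences were -0.39 ± 0.09 (limma adjusted p = 0.0139) and -0.42 ± 0.09 (adjusted p = 0.00716). The helicase gene Eif4a1 rose with P/I in DMSO by 0.28, 0.36 and 0.39 on its 3 probe sets, of which the first had an adjusted p of 0.0946 that was lost without any single array other than control or CHX replicate 1 (0.22 to 0.30). Eif6, for the factor that keeps the ribosomal subunits apart, was higher with P/I by 0.28 ± 0.08 in DMSO (adjusted p = 0.0457) and 0.25 ± 0.08 in CHX (adjusted p = 0.0637). The first was lost without replicate 3 of the control or P/I group (0.20 and 0.26), the second without any 1 of the 6 arrays with CHX (0.23 to 0.28). With quantile normalization both were lost (0.19 and 0.21), and with arrays centred on their median the second was (0.20).

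**Figure D3:**
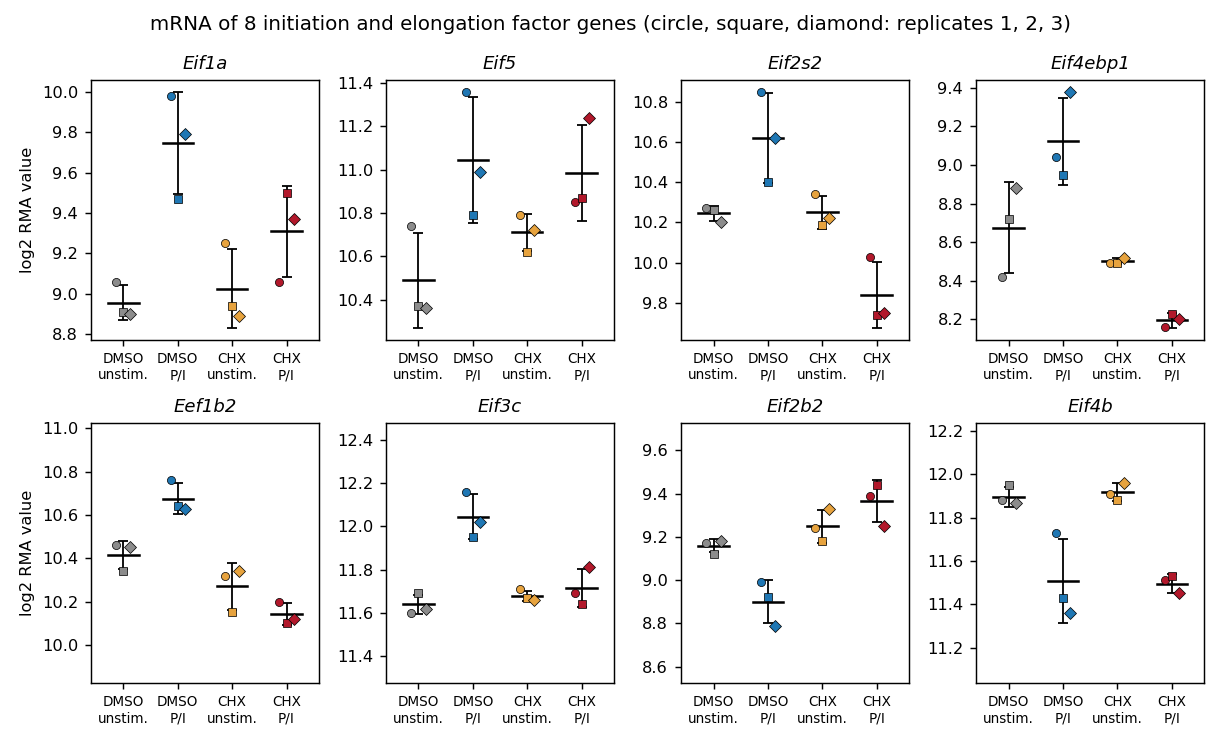
Values of 8 initiation and elongation factor genes on each array (y axis, log2 RMA value, with a separate range per gene that does not start at 0) in the 4 groups; bars give the mean ± SD of 3 arrays. Eif2s2 and Eif4ebp1 are highest in P/I and lowest in P/I plus CHX, and Eif4b is lower after P/I in both treatments.

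In the eEF1 complex, Eef1b2, for the subunit that recharges eEF1A with GTP, was lowest with CHX and P/I. It was at 10.46, 10.34 and 10.45 in unstimulated and 10.76, 10.64 and 10.63 in stimulated DMSO-treated cells, and at 10.20, 10.10 and 10.12 in P/I plus CHX. The difference CHX made during P/I was -0.53 ± 0.08 (1.45-fold lower, limma adjusted p = 0.000502), with no overlap. The P/I rise in DMSO, 0.26 ± 0.08 (adjusted p = 0.0516), was lost without control replicate 2 or 3 or P/I replicate 1 (0.22 to 0.28), and with quantile normalization (0.17, adjusted p = 0.141). Eef1e1, a scaffold protein of the tRNA synthetase complex, had the largest P/I rise of the 61 genes in DMSO, 0.98 ± 0.30 (1.97-fold, adjusted p = 0.0529). Its groups overlapped, at 10.40, 9.31 and 9.65 without and 11.23, 10.38 and 10.69 with P/I, and the call was lost without control replicate 2 (0.74) or 3 (0.91) or P/I replicate 1 (0.75) or 3 (1.02). Each P/I array lay above the same-numbered control array, and with a replicate block the rise was 0.98 ± 0.10 (limma adjusted p = 3.97e-05). With CHX during P/I, Eef1e1 differed by -0.73, called with a replicate block (± 0.10, limma adjusted p = 0.000216) and not without one (adjusted p = 0.122).

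Of the 5 methyltransferase genes that act on elongation factors, 2 were called. Eef1aknmt, whose enzyme methylates eEF1A, was at 7.75, 7.0 and 7.54 in P/I and 6.83, 6.58 and 6.63 in P/I plus CHX. The groups did not overlap, and the difference was -0.75 ± 0.21 (limma adjusted p = 0.024). Eef2kmt, whose enzyme methylates eEF2, fell by 0.39 ± 0.12 with P/I (adjusted p = 0.0541), a call lost without replicate 1 or 2 of the control or P/I group (-0.35 to -0.39) and with arrays centred on their median (-0.35, adjusted p = 0.132).

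With CHX present during P/I, 12 factor genes fell and 4 rose, or 19.7% and 6.56% of the 61, against 12% and 13.2% of all probe sets tested. Among members with a mean of at least 8 the shares were 21.7% lower and 4.35% higher, beside 22.9% and 21.9% of all probe sets at that level, so the lower share was near its background and the higher share below it. The lower group held the kinases Eif2ak3 and Eif2ak4, the inhibitor Eif4ebp1, 2 start codon genes, Eif2s2, 3 eIF3 genes, Eif5a2, Eef1b2 and Eef1aknmt. The higher group was Eif2b2, Eef2k, Eif4e3 and Eif1b, and all of these had been lower with P/I in DMSO. The same P/I arrays enter both differences with opposite sign, so low values on them favour both calls. The Eef2k and Eif4e3 calls were lost when single arrays were left out, and the second Eef2k probe set gave -0.13. The median difference of the members was -0.13, beside 0.01 over all probe sets. Without the replicate 1 arrays 16 were lower and 9 higher. With a replicate block 26 members were called, with Eef1e1, Eif2b3 and Eef1d among the lower. The higher count was 2 without P/I plus CHX replicate 3. Of the 12 lower calls, 9 were kept when any single array was left out, those of Eif1a, Eif3h and Eif5a2 being the exceptions. Eif5a2, for a second eIF5A, was at -0.28 (adjusted p = 0.0628), and its call was lost without P/I plus CHX replicate 3 (-0.19) or P/I replicate 1 (-0.24).

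**Figure D4:**
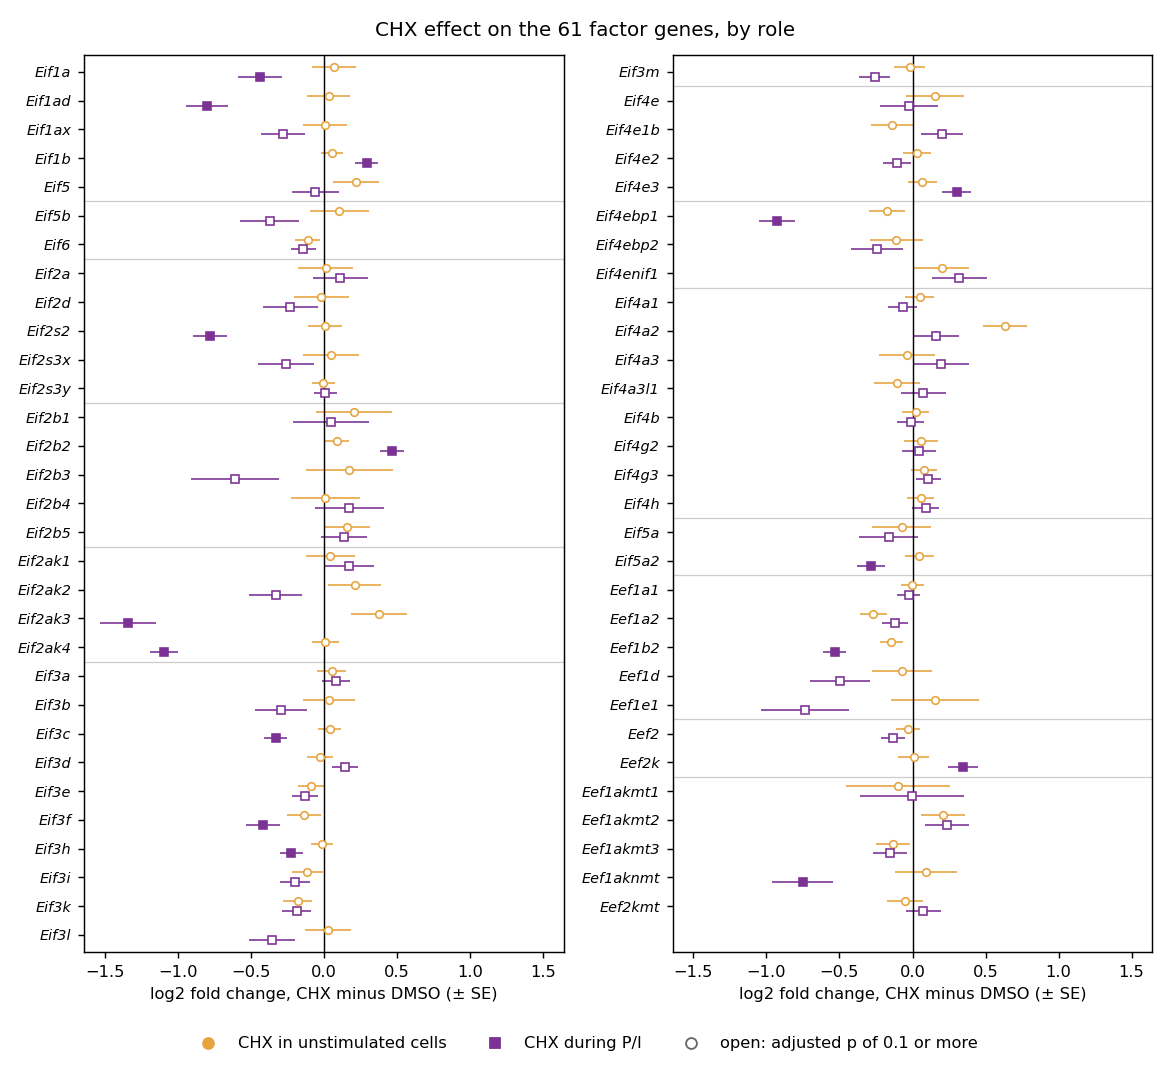
CHX effect on each of the 61 factor genes, as the log2 fold change of CHX-treated over DMSO-treated cells (x axis, ± SE from limma), in unstimulated cells (orange circles) and during P/I (purple squares). Genes are ordered by role with grey lines between roles, and filled symbols passed an adjusted p of 0.1. No member was called in unstimulated cells without a replicate block, and 16 were called during P/I. The unstimulated cells are labelled 0 h and the P/I cells 4 h. The time since CHX was added and P/I therefore cannot be told apart between these counts.

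In unstimulated cells no member was called for CHX (limma; 0.0299% of all probe sets were higher and 0% lower), and 2 of 61 had an unadjusted p under 0.05. These were Eif4a2, for a second eIF4A helicase, and Eef1a2, for a tissue-restricted eEF1A. Eif4a2 was at 11.13, 10.66 and 10.72 in DMSO and 11.52, 11.48 and 11.40 in CHX, so the groups did not overlap, with a difference of 0.63 ± 0.15 (unadjusted p = 0.00143, adjusted p = 0.371). Eef1a2 had a difference of -0.27 (unadjusted p = 0.0129, adjusted p = 0.627). With the replicate number as a block Eif4a2 was called (0.63 ± 0.10, adjusted p = 0.0515). Ordinary least squares called 0 members, and 1 member was called without the replicate 1 arrays. By their labels, the unstimulated CHX-treated cells had CHX for the 30 min pretreatment only, and P/I plus CHX cells for a further 4 h. Whether a longer CHX exposure without P/I alters these mRNAs was not tested.

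With P/I in CHX-treated cells, 2 members rose and 9 fell, or 3.28% and 14.8%, against 10.2% and 11.6% of all probe sets. At a mean of at least 8 the shares were 4.35% and 13%, beside 16.1% and 21.3% of all probe sets, so that both lay below their background. In the blocked limma fit the counts were 4 and 15. Rises called only there were Eif4a3 (0.32, adjusted p = 0.0281) and Eif3a (0.20, adjusted p = 0.0636). Falls called only there were Eif5b (-0.33, adjusted p = 0.024), Eif4a2 (-0.27, adjusted p = 0.0695), Eef2kmt (-0.26, adjusted p = 0.0727), Eif3f (-0.21, adjusted p = 0.0872), Eif3l and Eif4ebp1. Without a block the 9 falls were Eif2ak3, Eef2k, Eef1aknmt, Eif2ak2, Eif2ak4, Eif1ad, Eif4b, Eif2s2 and Eif1ax, and the 2 rises were Eif3d and Eif6. Without the replicate 1 arrays 7 rose and 14 fell. The count of falls was 5 without CHX replicate 1, and that of rises 1 without CHX replicate 1, 2 or 3 or P/I plus CHX replicate 2 or 3. The falls of Eif2ak3, Eef2k, Eif2ak4 and Eif4b and the rise of Eif3d were kept when any single array was left out. That of Eef1aknmt (-0.76 ± 0.21, adjusted p = 0.0273) was lost without CHX replicate 1 (-0.56), and that of Eif1ad (-0.43 ± 0.15, adjusted p = 0.0656) without CHX replicate 1 (-0.32) or P/I plus CHX replicate 2 (-0.43) or 3 (-0.37).

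By the interaction test, the P/I difference was not the same in CHX-treated and DMSO-treated cells for 8 members. In CHX, P/I cannot be told apart from the time since CHX was added. Of the 8, 1 was in the higher direction and 7 in the lower (1.64% and 11.5%, against 6.04% and 7.62% of all probe sets). At a mean of at least 8 the lower share was 15.2%, beside 13.1% of all probe sets, and at a mean of at least 9 it was 10.3%, beside 11.7%, so it was near its background. Those lower were Eif2ak3, Eif2ak4, Eif1ad, Eif2s2, Eif4ebp1, Eef1b2 and Eif3c, and the higher one was Eif2b2. The calls of Eef1b2, Eif3c and Eif2b2 were lost when single arrays were left out, with Eef1b2 at -0.35 to -0.38 in those fits, Eif3c at -0.33 to -0.37 and Eif2b2 at 0.32 to 0.39, whereas those of the other 5 were kept in all 12 such fits. Without the replicate 1 arrays 1 was higher and 10 were lower. With a replicate block 16 members were called. In no contrast were 35 of the 61 members called in the fits without a replicate block.

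The genes around these factors, taken from lists of known partners and regulators, are described by count for P/I in DMSO, beside the 9.05% of all probe sets that rose and the 8.42% that fell (16.5% and 13.8% at a mean of at least 8). Where CHX during P/I is given, 13.2% of all probe sets were higher and 12% lower (21.9% and 22.9% at that level). Of 12 measured genes of the eIF2 phosphorylation response 6 rose and 1 fell. Ddit3, a transcription factor of that response, rose by 2.99 ± 0.45 (limma adjusted p = 0.000741), Ppp1r15a, which directs the phosphatase to eIF2, by 1.53 ± 0.20 (adjusted p = 0.000256) and Atf4 by 0.95 ± 0.12 (adjusted p = 0.000209). Trib3 rose by 1.53 ± 0.30, and with CHX during P/I it fell by 3.30 ± 0.30 (adjusted p = 1.25e-05). With CHX during P/I 2 of these 12 genes were higher and 3 lower. Of 9 genes for the hypusine and diphthamide modifications of eIF5A and eEF2 and for a related factor, 5 rose and 1 fell. Dhps, for the first hypusine enzyme, rose by 0.60 ± 0.13 (adjusted p = 0.00747), whereas Eefsec, the selenocysteine elongation factor, fell by 0.60 ± 0.11 (adjusted p = 0.00302).

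Of 13 genes for cap and poly(A) partners none rose and 3 fell, including the eIF4E kinase gene Mknk2 (-0.80 ± 0.15, limma adjusted p = 0.00295). With CHX during P/I 1 of these 13 was higher and 3 were lower. Larp1, for an mRNA-binding partner of mTORC1, fell by 1.46 ± 0.18 in that contrast (adjusted p = 0.000121). Of 13 genes around mTORC1, 2 rose and 1 fell with P/I, and 2 rose and 0 fell with CHX during P/I. Mtor, the kinase itself, was -0.48 ± 0.14 with P/I (adjusted p = 0.0384) and 1.01 ± 0.14 with CHX during P/I (adjusted p = 0.000281). Of 12 termination and recycling genes 2 rose, among them Etf1, the release factor, by 0.71 ± 0.17 (adjusted p = 0.016). Of 9 mitochondrial factor genes 1 rose.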

How the data were processed

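Total RNA of EL-4 cells was hybridised to Affymetrix Mouse Gene 1.0ST arrays. The authors made log2 values with RMA background correction adjusting for probe sequence and quantile normalization in Partek, whose version is not given in the sources used here, and deposited 1 table of 35399 probe sets on 12 arrays, without missing values. These log2 values were used as deposited. Symbols came from the platform annotation: 21789 probe sets had 1 symbol, 1621 several and 11989 none. All 71 member probe sets matched the GRCm38.p6 gene table by Entrez ID and 0 symbols differed. A further 11 probe sets with several symbols that include such a name were left out.

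limma 3.58.1 (R 4.3.3) was fitted over 23410 probe sets with a mean per group (8 residual and 3.63 prior degrees of freedom), two-sided, without a replicate block. It was tested on simulated data with independent noise on each array. That simulation held no shared replicate effect, so it cannot show how the fit without a block behaves under one. Deviations of same-numbered arrays correlated at 0.27 to 0.574 between control and P/I, 0.511 to 0.75 between control and CHX, and 0.301 to 0.479 between CHX and P/I plus CHX. For these comparisons the numbers were taken to pair the arrays, from the data alone, and blocked values are given where they change a call. Between P/I and P/I plus CHX the lowest was 0.064. For CHX during P/I and the interaction, members called only with a block are named at the end. Array values are given for up to 6 members with the largest called change in each direction of each contrast, and their paralogues. Of each partner list up to 4 genes are named. Members, lists and tests were chosen with earlier results of these data known. Alternatives were 2 other scalings, an adjusted p of 0.05, a filter on low values, other sets of probe sets, ordinary least squares, a replicate block and leaving out arrays.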

Additional observations from a re-analysis of the deposited data

Results flagged for a closer look

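For 8 members the interaction test in limma (3 arrays per group) found that the P/I difference with CHX was unlike that with DMSO alone. The CHX arrays are labelled 0 h, so the time since CHX was added and P/I cannot be told apart in it. The P/I effect in CHX minus that in DMSO was -1.72 ± 0.27 for Eif2ak3 (adjusted p = 0.00221), -1.10 ± 0.13 for Eif2ak4 (adjusted p = 0.000348), -0.83 ± 0.21 for Eif1ad (adjusted p = 0.0253) and -0.78 ± 0.16 for Eif2s2 (adjusted p = 0.0102). The same difference was -0.75 ± 0.18 for Eif4ebp1 (adjusted p = 0.0201), -0.39 ± 0.11 for Eef1b2 (adjusted p = 0.0515) and -0.37 ± 0.11 for Eif3c (adjusted p = 0.0573). For Eif2b2 it was 0.37 ± 0.12 (adjusted p = 0.0665), in the other direction. The Eef1b2 call was lost without control replicate 2, CHX replicate 1 or 3, or P/I plus CHX replicate 2 or 3. That of Eif3c was lost without control replicate 1 or 3, CHX replicate 1 or 2, or P/I plus CHX replicate 1 or 2. That of Eif2b2 was lost without any control array, P/I replicate 3, CHX replicate 1 or 2, or P/I plus CHX replicate 1 or 2. With quantile normalization the Eif3c call was lost (-0.27, adjusted p = 0.125).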

How the results depend on the processing

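Precision is limited by 3 arrays per group, and no named result changed direction under any alternative run. Of 37 named gene and contrast pairs 11 kept their call under all of up to 22 alternatives. With quantile normalization 7 members were higher with P/I in DMSO, 1 with P/I in CHX and 2 by the interaction, and with an adjusted p under 0.05 these counts were 6, 1 and 0. With arrays centred on their median, 1 was higher with P/I in CHX and 0 by the interaction. The largest median shift of all probe sets under a scaling was 0.10 in size.

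Leaving out arrays, singly or all 4 of a replicate number (the latter chosen after seeing the data), gave 1 to 15 members higher and 1 to 9 lower with P/I in DMSO, 1 to 9 higher and 7 to 16 lower with CHX during P/I, and 0 to 1 higher with CHX in unstimulated cells. With P/I in CHX the counts were 0 to 7 higher and 3 to 14 lower (5 without CHX replicate 1 or without replicate 2 of every group), and by the interaction 0 to 1 higher and 1 to 10 lower. Leaving out a whole replicate number leaves 2 arrays per group.

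For CHX during P/I, and so for the interaction, 1 of 3 same-numbered pairs had a correlation of deviations of only 0.06, so the numbers were not taken to pair those arrays, although 11 of 12 arrays correlated best with their own number. With a replicate block, 23 members were called with P/I in DMSO and 22 were lower with CHX during P/I. Of those 22, the ones not called without it were Eef1e1, Eif2b3, Eef1d, Eif3l, Eif5b, Eif3b, Eif1ax, Eif2s3x, Eif3m and Eif2d. The blocked Eef1d difference was -0.50 ± 0.09 (limma adjusted p = 0.00164). In the blocked fit 1 was higher with CHX in unstimulated cells, 4 were higher and 15 lower with P/I in CHX, and 15 were lower by the interaction. By the interaction those called only with a block were Eef1e1, Eif2b3, Eef1aknmt, Eif3l, Eif5b, Eif4a2, Eef1d and Eif3b. Shares of all probe sets are given only for the fit without a block, so these counts have no background share. The block ended no call made without it.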
